A study of Arabidopsis thaliana with 12 samples.

Results

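Chlorophyll breakdown is carried out by a short chain of enzymes encoded in the nucleus, and 10 genes of that chain were followed here out of 26093 genes in the deposited table. The rule names them by identifier, from their known place in the pathway, and uses no measured value. The genes were nevertheless chosen with earlier results of these data known. They are NYE1 (AT4G22920), SGR2 (AT4G11910), NYC1 (AT4G13250), NOL (AT5G04900), HCAR (AT1G04620), PPH (AT5G13800), PAO (AT3G44880), RCCR (AT4G37000), CLH1 (AT1G19670) and CLH2 (AT5G43860). Each of the 10 was found in the table.

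The RNA came from whole Arabidopsis thaliana seedlings of the Col-0 ecotype grown in continuous light on a plant nutrient medium, with no further treatment named. The genotypes were wild-type Col-0, the atg2-4 mutant, the lon2-8 mutant and a lon2-8 atg2-4 double mutant. Each had 3 libraries, described as biological replicates. ATG2 is needed for autophagosome formation in autophagy, and LON2 is a protease and chaperone of the peroxisome matrix. Each mutant group carries 1 named allele per gene, and nothing in the labels describes a complemented line. The seedling age is 6 days in the series design and 8 days in the growth protocol. Title and genotype tag contradict each other for all 6 single-mutant samples, so libraries were grouped by the genotype in their column name.

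Values are FPKM, fragments per kilobase of gene scaled to library size, from 14481170 to 18690658 fragments per library. LON2 itself gave 24.7, 25.3 and 27.8 FPKM with Col-0, 23.2, 21.9 and 21.7 with atg2-4, 12.0, 11.1 and 11.7 with lon2-8 and 4.45, 4.53 and 5.36 with both mutations. ATG2 had a mean of 7.71 FPKM (SD 0.13, n = 3) with Col-0 and 7.58 (SD 0.51) with lon2-8, against 6.31 (SD 0.34) with atg2-4 and 6.59 (SD 0.43) with both mutations. The LON2 levels go with the column names. The ATG2 mRNA level says little about a mutant allele of that gene. Of 7 markers of green shoot tissue, none was at 0, and their summed level was 18942 to 19385 FPKM with Col-0, 16715 to 17938 with atg2-4, 18283 to 19124 with lon2-8 and 17358 to 18002 with both mutations. The 7 root markers summed to 1451 to 1489, 959 to 1025, 2080 to 2223 and 1037 to 1089 FPKM in the same order, a sum made up mostly of PYK10. Markers of embryo and seed (6 genes) summed to between 7.06 and 21.8 FPKM in all 12 libraries. In whole seedlings, fewer cells of a type and less RNA per cell cannot be told apart.

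Chlorophyll is dismantled in the chloroplast before its remains are exported to the vacuole. Chlorophyll b is converted to chlorophyll a by the chlorophyll b reductases NYC1 and NOL followed by the hydroxymethyl chlorophyll a reductase HCAR. NYE1, a magnesium dechelatase also known as a STAY-GREEN protein, then removes the magnesium, and the pheophytinase PPH removes the phytol tail. The oxygenase PAO opens the ring and RCCR reduces the product, which takes away its phototoxicity. In leaves the pathway is best known from senescence, when NYE1, NYC1, PPH and PAO are commonly induced. The chlorophyllases CLH1 and CLH2 can also cleave phytol, but are not required for chlorophyll loss in senescing leaves.

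The mRNA of CLH1 and NYC1 was lower in the autophagy mutant. Promoter sequences are shown for CLH1 and for the 4 genes whose mRNA was higher there, and not for NYC1. Each is the 250 bases before the annotated gene start, read from the RefSeq assembly TAIR10.1 on the strand of the gene. Capitals mark 3 short motifs on either strand, the abscisic acid response core ACGTG (which lies inside the G-box CACGTG), the W-box core TTGAC and the letters ATGTA of the core bound by EIN3.
NYE1: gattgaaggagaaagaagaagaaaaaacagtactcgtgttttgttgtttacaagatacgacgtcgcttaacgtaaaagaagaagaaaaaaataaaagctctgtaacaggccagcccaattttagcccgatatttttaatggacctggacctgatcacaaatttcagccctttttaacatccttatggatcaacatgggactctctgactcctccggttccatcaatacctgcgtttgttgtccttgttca
SGR2: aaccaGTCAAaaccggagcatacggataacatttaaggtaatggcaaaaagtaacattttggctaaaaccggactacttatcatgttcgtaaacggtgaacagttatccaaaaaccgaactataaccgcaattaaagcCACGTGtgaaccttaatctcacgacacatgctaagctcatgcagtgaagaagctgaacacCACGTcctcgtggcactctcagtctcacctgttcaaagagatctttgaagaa
PPH: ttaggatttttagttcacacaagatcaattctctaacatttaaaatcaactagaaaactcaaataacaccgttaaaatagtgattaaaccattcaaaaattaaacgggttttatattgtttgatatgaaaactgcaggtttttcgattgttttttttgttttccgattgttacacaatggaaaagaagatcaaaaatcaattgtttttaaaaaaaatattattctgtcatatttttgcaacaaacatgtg
PAO: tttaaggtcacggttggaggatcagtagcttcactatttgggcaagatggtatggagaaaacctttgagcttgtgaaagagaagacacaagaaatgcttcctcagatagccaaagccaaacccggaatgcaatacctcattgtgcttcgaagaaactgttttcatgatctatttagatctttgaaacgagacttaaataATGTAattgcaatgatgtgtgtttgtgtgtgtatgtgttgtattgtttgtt
CLH1: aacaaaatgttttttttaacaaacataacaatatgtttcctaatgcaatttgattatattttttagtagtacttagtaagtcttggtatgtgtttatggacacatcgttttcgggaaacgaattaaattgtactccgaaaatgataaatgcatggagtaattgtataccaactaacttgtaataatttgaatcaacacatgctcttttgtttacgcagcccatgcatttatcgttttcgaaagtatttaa
These windows are chr4:12018644-12018893 on the minus strand for NYE1, chr4:7155900-7156149 on the plus strand for SGR2, chr5:4454814-4455063 on the minus strand for PPH, chr3:16383345-16383594 on the plus strand for PAO and chr1:6805093-6805342 on the minus strand for CLH1. SGR2 alone of these 5 held a G-box, starting 112 bases before the gene, and ACGTG and TTGAC matches as well. PAO held 1 ATGTA, 51 bases before the gene, and its window lies in the span of the upstream gene AT3G44870, while the NYE1, PPH and CLH1 windows held none of the searched letters. Of 26089 promoters of the same length, 6.6% held CACGTG, 23.0% ACGTG, 44.9% TTGAC and 51.7% ATGTA on either strand. Among all 10 genes, CACGTG and ACGTG were found in SGR2 and NOL, TTGAC in SGR2 and NYC1, and ATGTA in NYC1, NOL, PAO, RCCR and CLH2.

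The dechelatase gene and its paralog differed most between genotypes. NYE1 (chromosome 4, 12016420 to 12018643, minus strand, TAIR10.1) gave 8.33, 8.92 and 9.61 FPKM with Col-0, 29.97, 31.65 and 31.45 with atg2-4, 9.13, 9.63 and 8.14 with lon2-8 and 27.94, 26.87 and 27.30 with both mutations. Every library with atg2-4 exceeded every library without it by a wide gap, while Col-0 and lon2-8 overlapped. Between the mean FPKM values the ratio to Col-0 was 3.47 with atg2-4, 1.00 with lon2-8 and 3.06 with both mutations. On the log2(FPKM + 1) scale used for all tests, NYE1 rose by 1.69 (SE 0.059) in atg2-4 with an adjusted p of 1.05e-10 from limma with Benjamini-Hochberg adjustment over 20662 genes. Against lon2-8, NYE1 rose by 1.51 (SE 0.059) in the double mutant, with an adjusted p of 2.93e-10 from the same limma model.

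SGR2, a paralog of NYE1 reported to slow chlorophyll loss when overproduced, was far rarer. This gene (chromosome 4, 7156150 to 7158047, plus strand) gave 0.471, 0.771 and 0.498 FPKM with Col-0, 2.04, 2.29 and 1.97 with atg2-4, 0.542, 0.658 and 0.382 with lon2-8 and 2.14, 2.30 and 2.37 with both mutations. These values rest on 13 to 27 fragments in each library without atg2-4 and 63 to 78 in each library with it. The ratio of means to Col-0 was 3.63 in atg2-4 and 3.91 in the double mutant. Its log2 difference of 0.98 (SE 0.10) in atg2-4, with limma's adjusted p of 4.13e-06, understates this ratio because of the pseudocount of 1 FPKM. SGR2 reached the filter of 1 FPKM in 3 libraries only through the 6 libraries with atg2-4, so it could enter the test only by being higher there. Per exonic base, NYE1 exceeded SGR2 14.1-fold (SD 3.54, n = 3) with Col-0, 12.9-fold (SD 0.94) with atg2-4, 15.3-fold (SD 2.97) with lon2-8 and 10.5-fold (SD 0.72) with both mutations. The double-mutant libraries, at 10.0 to 11.3, lay below those of atg2-4 and lon2-8 and overlapped those of Col-0.

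**Figure D1:**
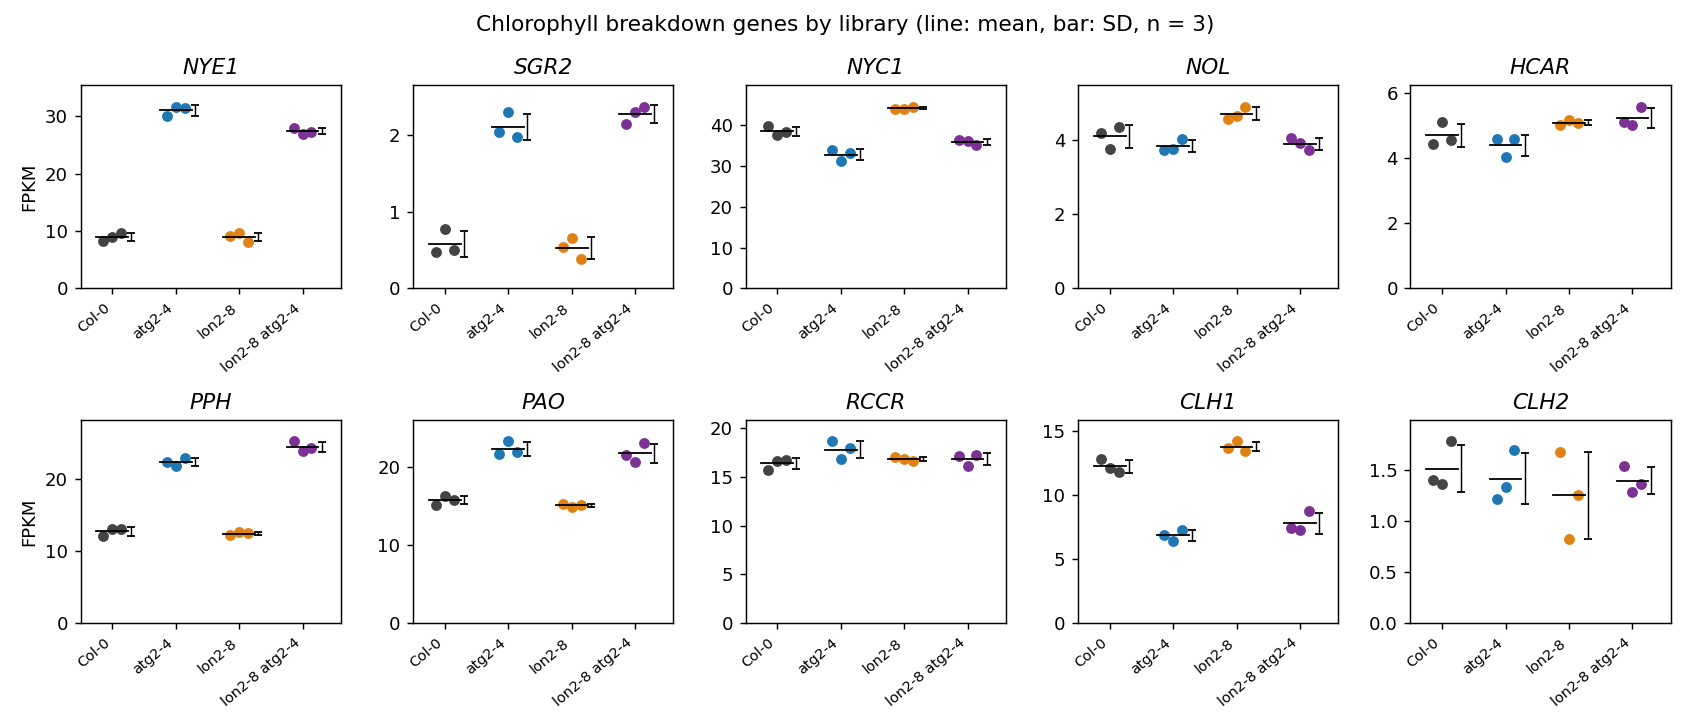
FPKM of each of the 10 chlorophyll breakdown genes by genotype, with 1 point per library, a line at the mean and a bar of 1 SD (n = 3). NYE1, SGR2, PPH and PAO lie higher and CLH1 lower in both genotypes with atg2-4, whereas RCCR stays between 15.7 and 18.6 FPKM in all 12 libraries.

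Of the genes for phytol removal, PPH and CLH1 changed in opposite directions in mRNA level. PPH (chromosome 5, 4451733 to 4454813, minus strand) gave 12.11, 13.14 and 13.11 FPKM with Col-0, 22.45, 21.93 and 23.04 with atg2-4, 12.21, 12.68 and 12.50 with lon2-8 and 25.29, 23.97 and 24.41 with both mutations. The libraries with and without atg2-4 did not overlap, and the ratio of means to Col-0 was 1.76 in atg2-4 and 1.92 in the double mutant. PPH rose by 0.77 (SE 0.042) in atg2-4, adjusted p 8.90e-09 in the limma fit, and by 0.89 (SE 0.042) in the double mutant, adjusted p 1.91e-09.

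CLH1 (chromosome 1, 6803486 to 6805092, minus strand) gave 12.83, 12.11 and 11.85 FPKM with Col-0, 6.87, 6.45 and 7.26 with atg2-4, 13.68, 14.20 and 13.49 with lon2-8 and 7.43, 7.24 and 8.77 with both mutations. Every library with atg2-4 was below every library without it, at 0.559 times the Col-0 mean in atg2-4 and 0.637 times in the double mutant. CLH1 fell by 0.76 (SE 0.066) on the log2 scale in atg2-4, with an adjusted p of 7.97e-07 by limma. The double mutant was lower than lon2-8 by 0.75 (SE 0.066), with an adjusted p of 7.26e-07 in that fit. All 3 lon2-8 libraries lay above all 3 Col-0 libraries for CLH1, but the difference of 0.16 (SE 0.066) did not pass, with an adjusted p of 0.102 by limma. It passed under median centring (0.043), under median ratio scaling (0.035), with only the groups compared in the fit (0.048) and without double-mutant library 3 (0.048).

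CLH2 (chromosome 5, 17630426 to 17632338, plus strand) stayed between 0.824 and 1.78 FPKM over the 12 libraries, and its 4 groups overlapped. It rests on 29 to 59 fragments per library. Its span shares 913 bases with AT5G43870 on the opposite strand, for which 3866 fragments were counted over the 12 libraries against 546 for CLH2. No strand setting is given, so reads of this pair cannot be told apart. For atg2-4 against Col-0 the 95% interval of the CLH2 difference ran from -0.35 to 0.23 on the log2 scale.

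The PPH to CLH1 ratio within a library, per exonic base, came to 1.15, 1.32 and 1.35 with Col-0, 3.98, 4.14 and 3.86 with atg2-4, 1.09, 1.09 and 1.13 with lon2-8 and 4.14, 4.03 and 3.39 with both mutations. Messages for the pheophytinase and the chlorophyllase were nearly level without atg2-4 and several-fold apart with it. This ratio was formed after both genes' values were known and carries no test.

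**Figure D2:**
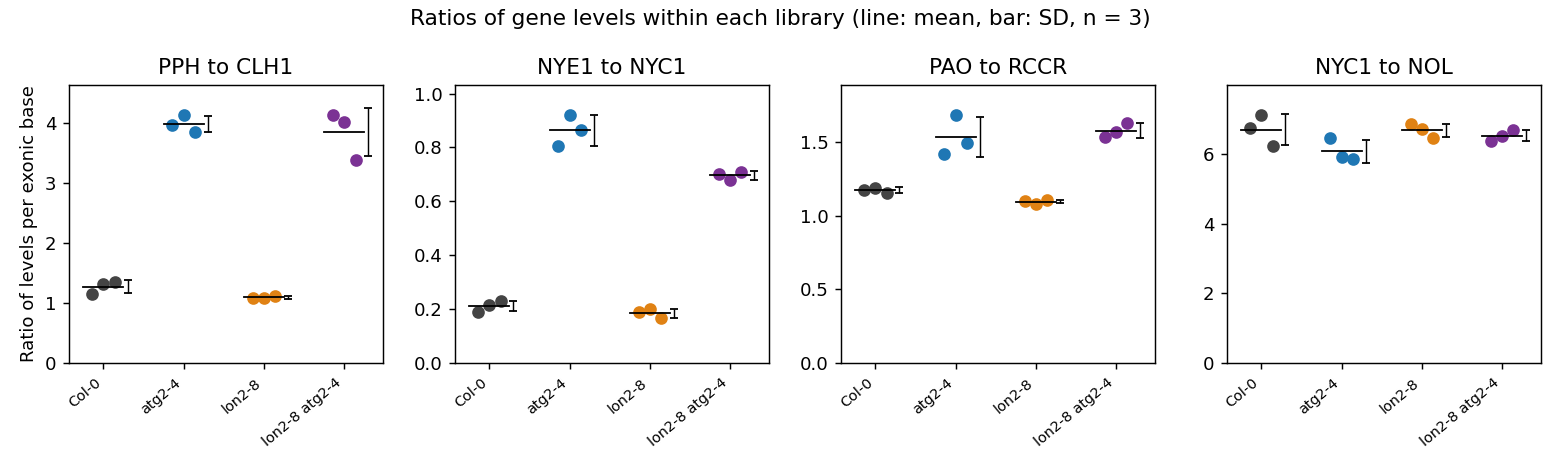
Ratio of the levels of gene pairs per exonic base within each library, by genotype, with the mean as a line and 1 SD as a bar (n = 3). PPH to CLH1 lies between 1.09 and 1.35 in the 6 libraries without atg2-4 and between 3.39 and 4.14 in the 6 with it. NYC1 to NOL lies between 5.85 and 7.13 in all 12 libraries.

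The mRNA of the ring-opening oxygenase rose with atg2-4, and that of the reductase after it did not pass the test. PAO (chromosome 3, 16383595 to 16386344, plus strand) gave 15.12, 16.20 and 15.79 FPKM with Col-0, 21.61, 23.21 and 21.91 with atg2-4, 15.26, 14.88 and 15.04 with lon2-8 and 21.50, 20.63 and 22.96 with both mutations. The 6 libraries with atg2-4 all lay above the 6 without it. PAO rose by 0.48 (SE 0.046) in atg2-4, a ratio of means of 1.42, and by 0.44 (SE 0.046) in the double mutant, a ratio of 1.38, with adjusted p of 2.38e-06 and 4.14e-06 by limma. The PAO span shares 11 bases with AT3G44870, for which 554 fragments were counted in all against 10531 for PAO.

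RCCR (chromosome 4, 17442612 to 17444295, plus strand) gave 15.71, 16.61 and 16.74 FPKM with Col-0, 18.61, 16.82 and 17.91 with atg2-4, 16.99, 16.78 and 16.58 with lon2-8 and 17.10, 16.08 and 17.20 with both mutations. The atg2-4 libraries all lay above those of Col-0 but overlapped those of the other mutants. Its difference in atg2-4 was 0.11 (SE 0.046) with an adjusted p of 0.056 by limma. The call turned with the scaling (adjusted p 0.011 under median ratio scaling) and without atg2-4 library 2 (0.021). RCCR shares 167 bases with AT4G37010 on the same strand, whose mean was 12.0 FPKM in Col-0 and 40.1 in atg2-4. The part of that gene's reads in the RCCR values was not tested.

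Of the genes that convert chlorophyll b, NYC1 moved the other way, by less. NYC1 (chromosome 4, 7684156 to 7687006, minus strand), the most abundant of the 10 per exonic base in every genotype, gave 39.77, 37.63 and 38.29 FPKM with Col-0, 33.95, 31.38 and 33.20 with atg2-4, 44.06, 44.07 and 44.59 with lon2-8 and 36.42, 36.12 and 35.17 with both mutations. Ordered by mean, atg2-4, the double mutant, Col-0 and lon2-8 did not overlap with their neighbours. NYC1 fell by 0.23 (SE 0.037) in atg2-4, adjusted p 0.00022, and rose by 0.19 (SE 0.037) in lon2-8, adjusted p 0.0021, both by limma. It was lower by 0.29 (SE 0.037) in the double mutant than in lon2-8, with limma's adjusted p of 2.02e-05. Against Col-0 the double mutant's difference of -0.10 (SE 0.037) passed with an adjusted p of 0.035 by limma. That call was lost under median ratio scaling, where the difference was -0.04 with an adjusted p of 0.35. It was lost also without Col-0 library 1, Col-0 library 3, double-mutant library 2 or double-mutant library 3, with adjusted p of 0.134, 0.062, 0.064 and 0.113.

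NOL (chromosome 5, 1434774 to 1437495, plus strand), which acts with NYC1, gave 4.18, 3.74 and 4.35 FPKM with Col-0, 3.73, 3.76 and 4.02 with atg2-4, 4.56, 4.65 and 4.89 with lon2-8 and 4.05, 3.92 and 3.72 with both mutations. Only lon2-8 stood clear of the other 3 groups. NOL was lower by 0.22 (SE 0.063) in the double mutant than in lon2-8, with an adjusted p of 0.011 by limma. Its difference of 0.16 (SE 0.063) in lon2-8 against Col-0 did not pass, at an adjusted p of 0.077, and it passed under median centring and under median ratio scaling (0.024 and 0.028). The NYC1 to NOL ratio per exonic base had a mean of 6.71 with Col-0, 6.08 with atg2-4, 6.68 with lon2-8 and 6.54 with both mutations, with SDs of 0.16 to 0.45 (n = 3).

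HCAR (chromosome 1, 1282163 to 1286619, minus strand) ranged from 4.44 to 5.11 FPKM with Col-0, 4.03 to 4.61 with atg2-4, 5.02 to 5.18 with lon2-8 and 5.02 to 5.58 with both mutations. The double mutant lay above atg2-4 in all 3 libraries without passing, at 0.21 (SE 0.066) with an adjusted p of 0.069 by limma. Against Col-0 the double mutant's difference of 0.13 (SE 0.066) did not pass, at an adjusted p of 0.115, and it passed under median ratio scaling (0.033). Of its gene span, 49.9% is exonic. Introns counted in the length lower its FPKM beside genes with few introns.

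Levels of different genes are compared here per exonic base, since the deposited FPKM divide by the whole gene span. Only the length was rescaled, and whether fragments within introns were counted is not stated. Such fragments would raise genes with long introns in this order and in the ratios of gene pairs. In Col-0 the order was NYC1 at 53.2, PAO at 21.4, RCCR at 18.3, PPH at 17.2, CLH1 at 13.5, NYE1 at 11.3, HCAR at 9.43, NOL at 7.95, CLH2 at 2.46 and SGR2 at 0.841 FPKM per exonic length. NYE1 was 6th in Col-0 and lon2-8, and 2nd in atg2-4 and the double mutant. CLH1 went from the 5th place in Col-0 to the 7th in atg2-4. SGR2 and CLH2 were the lowest pair in every genotype, with SGR2 last in Col-0 and lon2-8 and CLH2 last in the genotypes with atg2-4.

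**Figure D3:**
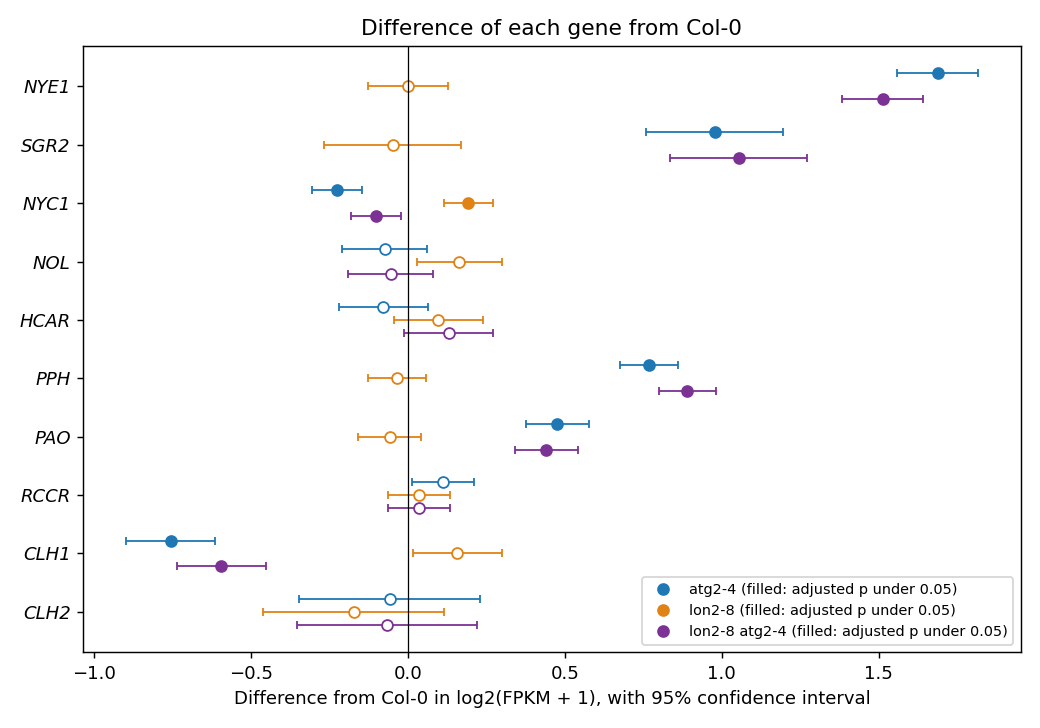
Difference from Col-0 in log2(FPKM + 1) with its 95% confidence interval for each gene in atg2-4, lon2-8 and the double mutant, filled where limma's adjusted p was under 0.05. The atg2-4 and double-mutant values lie side by side for NYE1, SGR2, PPH, PAO and CLH1, while the lon2-8 values lie within 0.20 of 0.

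Across the 6 comparisons the counts of genes that passed were as follows, and each is read beside the share of all 20662 tested genes that passed. For atg2-4 against Col-0, 6 of 10 passed, 4 higher (NYE1, SGR2, PPH, PAO) and 2 lower (NYC1, CLH1), against 48.5% of all genes. SGR2, which could enter the test only by being higher with atg2-4, is no independent part of this count, and 5 of the other 9 passed. A share this near the background is not particular to these genes. The median log2 difference was 0.03 for the 10 genes and -0.05 for all tested genes. For lon2-8 against Col-0, 1 of 10 passed (NYC1, higher), against 23.1% of all genes, and the count was 3 under either rescaling of the libraries. In the double mutant against Col-0, 6 of 10 passed, with NYE1, SGR2, PPH and PAO higher and NYC1 and CLH1 lower, against 52.0% of all genes, and the same limit on SGR2 holds. These 3 comparisons share the Col-0 libraries.

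The double mutant and lon2-8 differ by atg2-4, and share no library with the comparison of atg2-4 and Col-0. Both comparisons take their SE from the same fit of all 12 libraries, so their tests are not independent. In the double mutant against lon2-8, 7 of 10 passed, 4 higher and 3 lower (NYC1, CLH1 and NOL), against 49.9% of all genes. SGR2 is among the 4 and entered the test only through the libraries with atg2-4, and 6 of the other 9 passed. Set beside the difference of atg2-4 from Col-0, the values were 1.51 and 1.69 for NYE1, 1.10 and 0.98 for SGR2, 0.92 and 0.77 for PPH, 0.50 and 0.48 for PAO, -0.75 and -0.76 for CLH1 and -0.29 and -0.23 for NYC1.

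The 10 genes all differed by at most 0.21 on the log2 scale between the double mutant and atg2-4. For the double mutant against atg2-4, 0 of 10 passed in the limma fit, against 8.88% of all genes. At an unadjusted p under 0.05 there were 5, namely HCAR, CLH1, NYC1, NYE1 and PPH. With limma voom on fragments recovered from the FPKM, 3 passed, HCAR and NYC1 higher and NYE1 lower. NYE1 differed by -0.17 (SE 0.059), at an adjusted p of 0.089, with all 3 double-mutant libraries below all 3 of atg2-4. NYC1 differed by 0.13 (SE 0.037), at an adjusted p of 0.051, and PPH by 0.12 (SE 0.042), at 0.095, both in limma.

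Whether lon2-8 acted differently in the presence of atg2-4 was tested by the interaction. In it 0 of 10 genes passed by limma, against 13.2% of all genes. There was 1 gene, PPH, at an unadjusted p under 0.05, and voom passed 0 as well. The PPH interaction was 0.16 (SE 0.060) with an adjusted p of 0.11, and that of NYE1 was -0.18 (95% interval -0.36 to 0.01). The interval for SGR2 ran from -0.18 to 0.43, and includes 0.

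The authors' deposited table for atg2-4 gives log2 fold changes of 1.79 for NYE1, 1.86 for SGR2, 0.81 for PPH, 0.50 for PAO and -0.84 for CLH1, each with a false discovery rate under 0.05. That table also lists RCCR at 0.12 with a rate of 0.023, and NYC1 at -0.23 with 0.060. In all it lists 6 of the 10 genes under 0.05, and 5 of those also passed in limma. Its fold changes match the log2 of the ratios of mean FPKM in the same libraries, without a pseudocount. The overlap is therefore no independent check. For lon2-8 the authors' deposited table has 3 under 0.05 (NYC1, NOL and CLH1), for the double mutant against Col-0 6, with HCAR and without NYC1, and for the double mutant against atg2-4 2, NYE1 and HCAR.

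Genes whose pattern over the 12 libraries was most like that of NYE1 and SGR2 were sought among all tested genes, as the smallest root mean square difference of log2(FPKM + 1) values centred on Col-0. For NYE1 these were AT1G34050 (0.084), the transporter gene ABCC7 (0.090) and AT4G20000 (0.108). ABCC7 had mean levels of 1.24 FPKM with Col-0, 6.76 with atg2-4, 1.19 with lon2-8 and 5.80 with both mutations. For SGR2 they were MAN1 (0.083), ABCC3 (0.092) and AT4G08850 (0.0999). The pseudocount of 1 FPKM shrinks differences of rare genes on this scale, so a close match need not mean an equal ratio of FPKM. From Col-0 to atg2-4 the ratio of means was 3.63 for SGR2, and MAN1, also rare, went from 0.506 to 2.01 FPKM. ABCC3 went from 11.86 to 24.26 FPKM and AT4G08850 from 52.97 to 108.54, which are smaller ratios than that of SGR2. ABCC3 is a vacuolar transporter able to carry chlorophyll catabolites and belongs to the list of later steps described next.

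Of 10 genes for related and later steps, 4 rose and 4 fell in atg2-4, beside 48.5% of all genes that passed in either direction, with a median of -0.003 against -0.05 for all tested genes. ABCC3 had 11.8, 12.3 and 11.5 FPKM with Col-0 and 25.3, 23.5 and 23.9 with atg2-4, and rose by 0.97 (SE 0.046; adjusted p 1.78e-09 by limma). CYP89A9, the cytochrome P450 that turns the fluorescent catabolites into dioxobilin forms, had 5.33, 5.30 and 4.62 FPKM with Col-0 and 10.5, 9.99 and 10.7 with atg2-4, and rose by 0.91 (SE 0.056; adjusted p 2.72e-08 by limma). All atg2-4 libraries of both genes lay above all Col-0 libraries. ABCC2, another vacuolar transporter for chlorophyll catabolites, fell by 0.37 (SE 0.039). AT1G44000, which RefSeq annotates as a STAY-GREEN-like protein, fell by 0.40 (SE 0.043), so this relative of NYE1 went the opposite way.

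In the double mutant against Col-0, 6 of these 10 were higher and 4 lower, beside 52.0% of all genes that passed, with ABCC3 at 1.11 (SE 0.046), CYP89A9 at 1.16 (SE 0.056), TIC55 at 0.33 (SE 0.033) and AT1G44000 at -0.45 (SE 0.043). TIC55 is an oxygenase of the chloroplast envelope that hydroxylates a catabolite after RCCR. Against lon2-8 the double mutant had 5 higher and 3 lower, beside 49.9% of all genes, with ABCC3 at 1.11, CYP89A9 at 1.20, TIC55 at 0.24 and ABCC2 at -0.33. In lon2-8, where 23.1% of all genes passed, 1 rose, MES16 at 0.48 (SE 0.088), an esterase that demethylates catabolites, and 3 fell, AT2G35260 at -0.34 (SE 0.046), AT1G44000 at -0.17 (SE 0.043) and AT2G25625 at -0.37 (SE 0.12). Under either rescaling of the libraries AT1G44000 and AT2G25625 no longer passed, with adjusted p of 0.053 to 0.072. Without lon2-8 library 2 neither AT1G44000 (0.059) nor AT2G25625 (0.141) passed, and AT2G25625 did not pass either without Col-0 library 1 (0.122), Col-0 library 3 (0.087) or lon2-8 library 1 (0.096). The AT2G25625 call was lost also with the library number as a replicate block (0.054), with voom (0.057) and with only the groups compared in the fit (0.086).

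For the double mutant against atg2-4, 3 of these 10 were higher and 0 lower, beside 8.88% of all genes, CYP89A9 at 0.25 (SE 0.056), MES16 at 0.38 (SE 0.088) and TIC55 at 0.13 (SE 0.033). This count rested on single libraries and on the fit. It was 0 without atg2-4 library 2 or double-mutant library 3, and 1 without atg2-4 library 3 or double-mutant library 2. TIC55 did not pass either with the replicate block (adjusted p 0.055) or with only the groups compared in the fit (0.079).

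The list for phytol and tocopherol held 12 genes, among them CAO of chlorophyll b synthesis. Of these, 3 rose and 6 fell in atg2-4, beside 48.5% of all genes that passed. Their median was -0.12 against -0.05 for all tested genes. CHLP, the geranylgeranyl reductase that makes the phytol tail, had 324, 330 and 324 FPKM with Col-0 and 224, 236 and 211 with atg2-4, and fell by 0.54 (SE 0.035; adjusted p 4.74e-08 by limma). CAO, which makes chlorophyll b, fell by 0.30 (SE 0.038), VTE1, the tocopherol cyclase, by 0.36 (SE 0.070) and VTE4, a tocopherol methyltransferase, by 0.22 (SE 0.054). In lon2-8, 2 rose and 4 fell, beside 23.1% of all genes, with VTE4 at -0.39, CAO at -0.25, the phytyl ester synthase gene PES2 at -0.39 and the methyltransferase gene VTE3 at 0.18. In the double mutant against Col-0, 1 rose and 5 fell, beside 52.0% of all genes. HPD, which makes the homogentisate head group of tocopherol, rose by 0.60 (SE 0.042), while CHLP was at -0.48, VTE4 at -0.52 and CAO at -0.32.

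Against atg2-4 the double mutant had 1 of the 12 higher, HPD at 0.45, and 2 lower, VTE4 at -0.30 and AT1G78620 at -0.20, beside 8.88% of all genes. AT1G78620 did not pass without atg2-4 library 1 or 3 or without any 1 of the 3 double-mutant libraries, where adjusted p ran from 0.058 to 0.110. Against lon2-8 the double mutant had 4 higher and 5 lower, beside 49.9% of all genes, with CHLP at -0.53, HPD at 0.44, VTE3 at -0.30 and the phytol kinase gene VTE5 at 0.28.

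Reported transcriptional regulators of these genes were a list of 19, of which 17 were tested; ABI5 and AT1G19210 were below the filter. In atg2-4, 7 rose and 7 fell, beside 48.5% of all genes that passed, with a median of -0.07 against -0.05 for all tested genes. Of the 7 NAC factors of the list, 6 rose and 1, ANAC072, fell. This split of the list was not fixed beforehand, and most of the other regulators that passed fell. Over all tested genes, 43.9% of the calls were higher. The NAC factors of smallest adjusted p were ORE1 at 0.95 (SE 0.046), ANAC046 at 1.35 (SE 0.072) and ANAC016 at 1.32 (SE 0.12). Their adjusted p were 2.63e-09, 6.51e-09 and 8.90e-07 by limma. ANAC046 stood at 6.91, 6.43 and 7.04 FPKM in Col-0 and 17.8, 19.8 and 19.2 in atg2-4, without overlap. ANAC072, chosen for mention after its values were seen, fell by 0.62 (SE 0.058), from 39.0 to 43.4 FPKM in Col-0 to 25.5 to 27.7 in atg2-4. MYC2, a jasmonate response factor, fell by 0.66 (SE 0.052).

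In lon2-8, 1 of the 17 rose and 10 fell, beside 23.1% of all genes that passed, with a median of -0.27 against -0.04 for all tested genes. ORE1 had 26.5, 25.6 and 27.8 FPKM with Col-0 and 15.0, 14.8 and 16.7 with lon2-8, and fell by 0.74 (SE 0.046; adjusted p 1.76e-07 by limma). NAP, another NAC factor of leaf senescence, had 7.98, 8.35 and 8.48 FPKM with Col-0 and 2.37, 2.73 and 2.80 with lon2-8, and fell by 1.35 (SE 0.062; adjusted p 1.51e-08 by limma). PIF5 fell by 0.53 (SE 0.038) and EIL1, a relative of the ethylene factor EIN3, by 0.27 (SE 0.035). In the same libraries NYE1 differed from Col-0 by 0.00 (95% interval -0.13 to 0.13), PPH by -0.03 (-0.13 to 0.06) and PAO by -0.06 (-0.16 to 0.04). NYC1 was higher by 0.19 there and passed, with an adjusted p of 0.0021 by limma. Without passing, NOL and CLH1 were each at 0.16, HCAR at 0.10, RCCR at 0.04, SGR2 at -0.05 and CLH2 at -0.17. The part of the regulators in these levels was not tested.

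In the double mutant against Col-0, 7 of the 17 rose and 7 fell, beside 52.0% of all genes, with ORE1 at 0.86, ANAC046 at 1.00, ANAC072 at -0.71 and MYC2 at -0.61. Against lon2-8 it had 8 higher and 3 lower, beside 49.9% of all genes, with ORE1 at 1.61 (SE 0.046), NAP at 1.46 (SE 0.062), ANAC055 at 1.15 (SE 0.090) and ANAC016 at 1.41 (SE 0.12). Against atg2-4 there were 0 higher and 4 lower by limma, beside 8.88% of all genes, PIF4 at -0.48, PIF5 at -0.27, ANAC046 at -0.35 and ANAC055 at -0.38. ANAC055 did not pass without atg2-4 library 2 or 3 or double-mutant library 2 or 3, where adjusted p was 0.056 to 0.081.

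**Figure D4:**
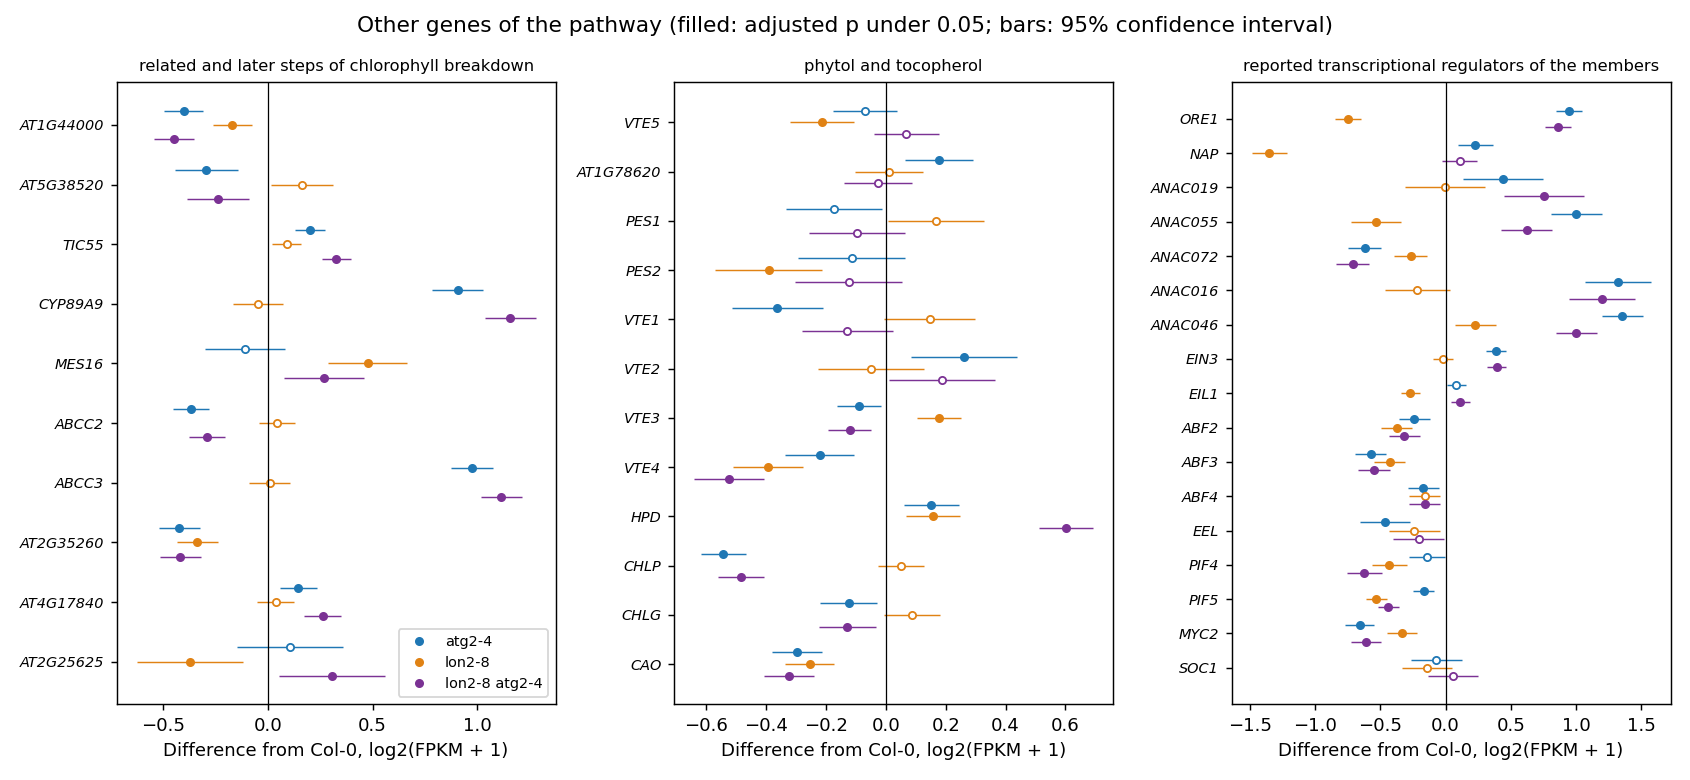
Difference from Col-0 in log2(FPKM + 1) with 95% confidence intervals for genes of the 3 lists in atg2-4, lon2-8 and the double mutant, filled where limma's adjusted p was under 0.05. ORE1 and NAP lie to the left in lon2-8 alone, while ABCC3 and CYP89A9 lie to the right in both genotypes with atg2-4.

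Markers of shoot, root and seed also differed between genotypes. In atg2-4, 6 of the 7 shoot markers were lower and 0 higher, with a median of -0.20, and 3 of 7 root markers were higher and 2 lower, beside 48.5% of all genes that passed. Of the 5 seed markers tested, 1 was higher and 3 lower there, with a median of -0.81. In lon2-8, 2 shoot markers were higher and 2 lower, 3 root markers were higher and 0 lower, and 0 seed markers were higher and 1 lower, beside 23.1% of all genes. In the double mutant against Col-0, 4 of 7 shoot markers were lower and 0 higher, 2 root markers were higher and 3 lower, and 2 seed markers were higher and 2 lower, beside 52.0% of all genes. Against lon2-8 it had 3 shoot markers lower and 0 higher, 1 root marker higher and 4 lower (median -0.67), and 2 seed markers higher and 1 lower, beside 49.9% of all genes. Against atg2-4 it had 2 shoot markers higher and 0 lower, 1 root marker higher and 1 lower, and 3 seed markers higher and 0 lower (median 0.83), beside 8.88% of all genes. The part of these shifts in the levels of the chlorophyll breakdown genes was not tested.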

How the data were processed

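Libraries were poly-A selected and read from both ends, per the labels. Tools in the submitters' processing notes include the aligner STAR 2.5.1a and the counters featureCounts 1.4.6-p5 and Salmon 0.8.2, besides edgeR and limma, whose roles are not stated; no build or strand setting is given in the sources. Values deposited by the authors are FPKM of each gene in each library, and tables with a log2 fold change and a false discovery rate (adjusted p-value) per comparison. FPKM were whole multiples of 1 step for 26093 of 26093 genes (tolerance 0.01 fragments), which gave the fragments. The implied length was the TAIR10.1 gene span less 1 base for 20888 of 20906 genes with at least 200 fragments, so introns are included.

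Genes at 1 FPKM or more in 3 libraries (20662) were fitted as log2(FPKM + 1) with limma 3.58.1 in R 4.3.3, all 12 libraries in 1 model, two-sided, Benjamini-Hochberg threshold 0.05. All 10 chlorophyll breakdown genes passed this filter, SGR2 through atg2-4 and the double mutant only, and CLH2 with 11 libraries. There were 6 comparisons, each mutant with Col-0, the double mutant with atg2-4 and with lon2-8, and the interaction. The genes and lists were chosen with earlier results of these data known. All 10 genes were named, with LON2 and ATG2; from each list up to 4 genes of smallest adjusted p per comparison; and the 3 most similar genes where a gene's group means spanned at least 1 log2. Genes overlapping PAO, RCCR and CLH2 and shoot, root and seed markers were added. Alternatives were pseudocount, filter, scaling, samples in the fit, voom, a replicate block and leaving out each library. Tables used pandas 2.3.3 in Python 3.11.15, and figures matplotlib 3.10.9. Precision is limited by 3 libraries per group, and by fragments for SGR2 and CLH2.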

Additional observations from a re-analysis of the deposited data

Results flagged for a closer look

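No chlorophyll breakdown gene passed the test of interaction, but 11 genes named from the lists did, meaning that the effect of lon2-8 differed between the atg2-4 and Col-0 backgrounds. The values are on the log2(FPKM + 1) scale, with adjusted p from limma. LON2 itself, outside these lists, had an interaction of -0.92 (adjusted p 3.21e-05). LON2 mRNA differed by -1.13 between the double mutant and lon2-8, so the remaining message was not equal in both backgrounds. The part of this difference in the other interactions was not tested. Of the regulators, NAP had an interaction of 1.23 (adjusted p 2.37e-06), ORE1 of 0.66 (3.09e-05), EIL1 of 0.30 (0.0014) and ABF3 of 0.45 (0.0021). NAP was 1.35 lower in lon2-8 than in Col-0 and differed by -0.12 between the double mutant and atg2-4. Of the phytol and tocopherol list, which also holds CAO of chlorophyll b synthesis, VTE5 had 0.35 (0.0054), HPD 0.29 (0.0058), VTE3 -0.21 (0.011) and CAO 0.23 (0.015). Of the related steps, AT2G35260 had 0.34 (0.0038), CYP89A9 0.30 (0.025) and AT2G25625 0.58 (0.037). CYP89A9 did not pass without Col-0 library 1 or 2, atg2-4 library 2, lon2-8 library 3 or double-mutant library 3 (adjusted p 0.050 to 0.067), nor with voom (0.053). AT2G25625 did not pass without Col-0 library 1 or 3, atg2-4 library 1 or 3, lon2-8 library 1 or 2, or any 1 of the double-mutant libraries (0.057 to 0.085), nor with the replicate block (0.058). Over the lists, 3 of 10, 5 of 12 and 9 of 17 genes passed, against 13.2% of all genes tested.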

How the results depend on the processing

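The 4 genes that were higher and CLH1, which was lower, kept direction and call in the 3 comparisons of a genotype with atg2-4 and one without it, under all 20 alternatives. For SGR2 this says less, since it entered the filtered fits only through the libraries with atg2-4. The number of chlorophyll breakdown genes that passed for lon2-8 went from 1 to 3 with libraries centred on their median and with median ratio scaling, and to 2 with only the groups compared in the fit. For the double mutant against atg2-4 it went from 0 to 1 with a pseudocount of 5 (NYE1), with no filter (NYC1), with either rescaling (NYC1) and with only the groups compared (NYE1), and to 3 with voom. Without 1 library at a time, the counts were 6 to 7 for atg2-4, 1 to 2 for lon2-8 (2 without double-mutant library 3), 5 to 6 for the double mutant against Col-0, 0 to 1 against atg2-4 (1 without atg2-4 library 1), 7 against lon2-8 and 0 for the interaction. Over all genes the double mutant against atg2-4 had 1835 calls, and 1069, 1090 and 1064 without atg2-4 library 3, double-mutant library 2 and double-mutant library 3. With median ratio scaling the share of all calls that were higher went from 39.2 to 59.1% for lon2-8 and from 53.8 to 40.8% for the interaction; median centring gave 58.7 and 42.4%. Same-numbered libraries did not deviate together (correlations -0.06 to 0.05 in 18 pairs). With the number as a replicate block, the chlorophyll breakdown genes that passed numbered 6, 1, 6, 0, 7 and 0 in the 6 comparisons, the same as without it, and over all genes 9901 passed for atg2-4 and 10027 without the block. The sign turned 37 times, in no case with a call. With libraries centred on their median, PPH was 0.013 and ATG2 0.024 for lon2-8, CLH2 0.0064 for the double mutant against atg2-4, HCAR -0.0068 and RCCR -0.039 against lon2-8, and CLH1 -0.028 and PAO -0.011 in the interaction. With median ratio scaling, PPH was 0.017 and ATG2 0.026 for lon2-8, and CLH1 -0.035 and PAO -0.017 in the interaction, where CLH1 was -0.013 with a pseudocount of 5. Without 1 library at a time, these differences ran across 0. For atg2-4 this was CLH2 from -0.14 to 0.017. For lon2-8 this was NYE1 from -0.046 to 0.062, SGR2 from -0.11 to 0.037 and ATG2 from -0.054 to 0.027. For the double mutant against Col-0 this was CLH2 from -0.11 to 0.0083. For the double mutant against atg2-4 this was CLH2 from -0.068 to 0.073 and NOL from -0.0029 to 0.047. For the double mutant against lon2-8 this was CLH2 from -0.037 to 0.24, RCCR from -0.016 to 0.029 and HCAR from -0.0067 to 0.058. In the interaction this was CLH1 from -0.072 to 0.050 and PAO from -0.018 to 0.056. The causes were not tested. Counts of 13 to 78 fragments limit SGR2 and CLH2.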
